A study of Mus musculus with 20 samples.

Results

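The integrins and laminins of the mouse heart were followed across 5 regions: the left atrium (LA), the right atrium (RA), the left ventricle (LV), the right ventricle (RV) and the sinoatrial node (SA), the pacemaker tissue at the border of RA. Members were all genes whose symbol on the array names an integrin alpha chain, an integrin beta chain, or a laminin alpha, beta or gamma chain, without integrin-binding proteins, and 32 of the 16593 genes measured met this rule. They comprised 24 integrins (15 alpha and 9 beta chains) and 8 laminins (3 alpha, 3 beta and 2 gamma chains). All tissue came from untreated male C57/BL6 mice of 5 to 10 weeks, which carried no engineered allele according to the labels, and each region was represented by 4 arrays. V denotes both ventricles, and a difference written as 2 regions is the first minus the second. Each LV had been cut into pieces and several mice were pooled for each SA sample. Nothing in the labels states that arrays came from separate animals, so the p-values measure only the spread between these samples, which may be technical.

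Laminins are cross-shaped proteins of an alpha, a beta and a gamma chain, and they form the sheet of the basement membrane that wraps each heart muscle cell, each vessel and the outer lining of the heart. Integrins are pairs of an alpha and a beta chain in the cell membrane. They hold the basement membrane or other matrix outside the cell and are linked through adaptor proteins such as talin and vinculin to actin inside it. In muscle this chain carries force sideways from the sarcomeres to the matrix, next to the dystrophin complex, which also binds laminin. Some integrins serve other cells, for instance the leukocyte and platelet integrins.

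The values were z-scores within an array, in which 0 is the mean of all probes of that array and 1 is their SD. They have no true zero, so regions are compared by differences rather than folds, and a value below 0 does not show that a gene was silent. Each gene was read with the probe of the highest mean, and since probes differ in how brightly they bind, levels are compared between regions and not between genes. The array of LV replicate 4 stood apart, with a mean Spearman correlation of -0.016 with the other arrays, against 0.874 for LV replicate 3 and 0.939 to 0.949 for the other 18 arrays (across genes, which are not independent replicates). On LV replicate 4, 22 of the 32 members lay more than 0.5 from the mean of LV replicates 1 and 2, against 1 member on LV replicate 3. The tests therefore used 19 arrays, and the result with all 20 arrays is given beside each comparison. A further array, RV replicate 2, carries a title that names RA while its source name, tissue and description name RV. It was used as RV, and without it every count of called members below was the same except that for LV versus RV. The 4 atrial muscle markers were all higher in atria than in V, the 3 ventricular markers were all lower, and the 3 node markers tested were all higher in SA than in RA.

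Of the 32 genes, 14 had a z-score above 0 in at least 1 of the 19 arrays and were tested (10 integrins and 4 laminins), together with 7618 genes in all. The other 18 lay at or below 0 in each of these arrays. Over the 5 regions, 9 of the 14 genes (64.3%) differed at an adjusted p of 0.05 or less in the moderated F test of limma, beside 65.3% of all genes tested. These were *Lamb3*, *Lamc1*, *Itgb4*, *Itgb6*, *Itga3*, *Itga5*, *Itga6*, *Itga7* and *Itga11*. Regional differences were thus about as frequent in this family as in the table as a whole. With all 20 arrays 3 of the 14 genes passed, beside 14.7% of all genes.

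**Figure D1:**
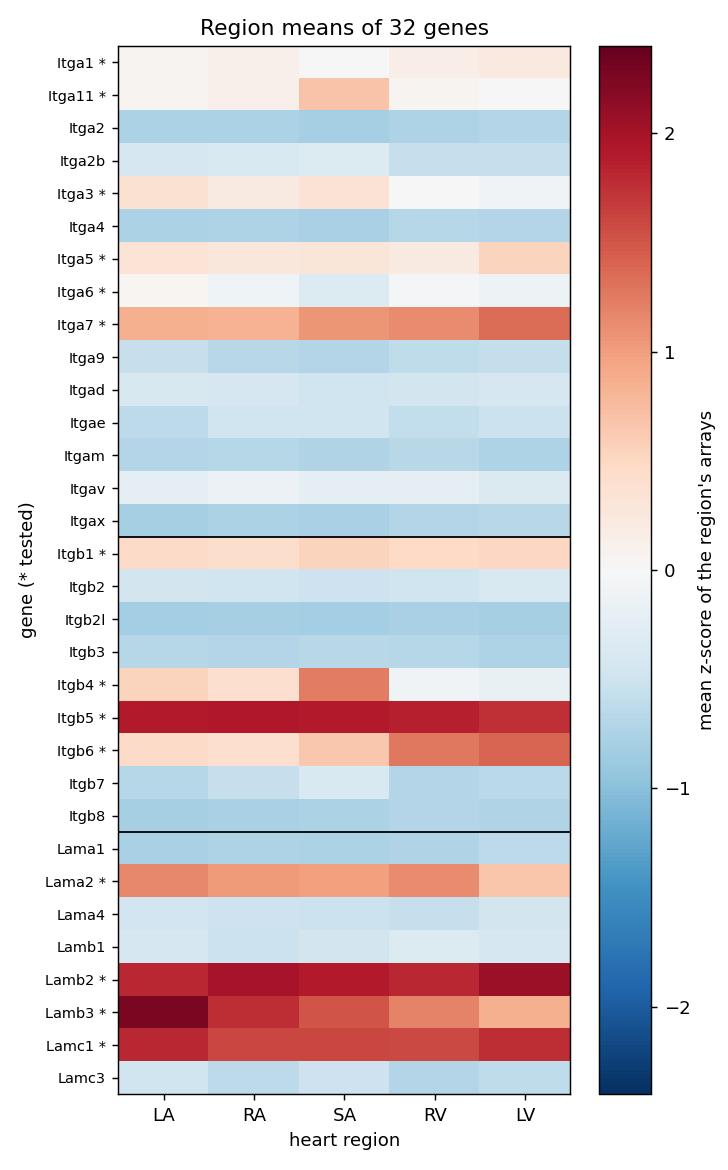
Mean z-score of each of the 32 genes (rows, integrin alpha chains at the top, then beta chains, then laminins) in each heart region (columns), with red above and blue below the array mean. Asterisks mark the 14 tested genes, and LV is the mean of 3 arrays. Rows whose shade changes from left to right, such as *Lamb3*, *Itgb4* and *Itgb6*, are genes with large differences between regions. Of these, *Itgb4* turns from red to blue, and *Lamb3* and *Itgb6* stay red. The rows of the 18 other genes are blue throughout.

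For 4 of the genes with regional differences, the 250 bases before the annotated start were read from RefSeq (GRCm38.p6), where 21 of the 32 members and 10 of the 14 tested genes had an entry. They are shown for 4 genes chosen as examples, *Lamb3* (graded over all regions), *Itgb6* (higher in V), *Itga11* (higher in SA) and *Itga3* (lower in V). *Itgb4* and *Itga7*, which also differed between regions, are not shown. Each window runs 5′ to 3′ on the strand of the gene, at the most upstream start listed. Capitals mark matches, on either strand, to 5 short motifs, namely the T-box site with the letters GGTGTGA, the GATA site with the letters AGATAA, the AP-1 site with the letters TGANTCA, the GC box with the letters GGGCGG and the TATA box with the letters TATAAA.
Lamb3, chr1:193301744-193301993, plus strand: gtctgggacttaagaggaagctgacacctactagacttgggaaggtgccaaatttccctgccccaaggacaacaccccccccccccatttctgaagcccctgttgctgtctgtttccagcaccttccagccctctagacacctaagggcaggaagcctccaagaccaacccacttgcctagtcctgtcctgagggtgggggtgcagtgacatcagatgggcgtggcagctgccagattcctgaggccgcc
Itgb6, chr2:60722604-60722853, minus strand: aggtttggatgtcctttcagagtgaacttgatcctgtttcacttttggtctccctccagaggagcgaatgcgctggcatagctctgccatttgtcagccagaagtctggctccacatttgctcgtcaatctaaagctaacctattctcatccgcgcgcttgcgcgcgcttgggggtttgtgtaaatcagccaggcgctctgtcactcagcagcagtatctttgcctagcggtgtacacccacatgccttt
Itga11, chr9:62677605-62677854, plus strand: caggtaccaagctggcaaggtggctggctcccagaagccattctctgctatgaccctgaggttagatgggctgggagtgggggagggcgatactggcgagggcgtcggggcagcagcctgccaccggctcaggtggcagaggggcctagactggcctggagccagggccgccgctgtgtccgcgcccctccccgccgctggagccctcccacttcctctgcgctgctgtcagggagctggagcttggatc
Itga3, chr11:95076715-95076964, minus strand: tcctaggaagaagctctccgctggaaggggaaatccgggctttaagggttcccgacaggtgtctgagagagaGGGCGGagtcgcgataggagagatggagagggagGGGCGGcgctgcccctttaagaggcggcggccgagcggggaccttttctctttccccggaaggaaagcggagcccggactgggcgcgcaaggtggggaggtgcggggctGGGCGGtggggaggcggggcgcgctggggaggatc
Only the *Itga3* window held any of these letters, with 3 GC boxes that begin 178, 144 and 35 bases before the start. Among all 32851 promoter windows of this length in the table, 32.7% held the GC box, 12.4% the TATA box, 9.99% the GATA letters, 6.75% the AP-1 letters and 3.33% the T-box letters. The windows differed in base composition, with 52% G or C for *Itgb6*, 58.8% for *Lamb3*, 67.6% for *Itga3* and 68.4% for *Itga11*. A match is only a match of letters, and its absence says nothing about binding.

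Among the laminins, *Lamb3*, the beta chain of the laminin that anchors epithelia such as skin, separated all 5 regions. Its z-scores were 2.05, 2.26, 2.29 and 2.45 in LA, and 1.80, 1.83, 1.62 and 1.88 in RA. They were 1.46, 1.50, 1.52 and 1.53 in SA, 1.37, 1.26, 1.09 and 1.03 in RV, and 0.88, 0.97 and 0.69 in LV. The order was LA, RA, SA, RV, LV, and no array of one region overlapped an array of another, a pattern found in 5 of 7618 genes (0.0656%). LV replicate 4 gave 1.12, which lies inside the RV range, so with that array LV and RV overlapped and the other regions did not. Region means were 2.26 ± 0.16 in LA, 1.78 ± 0.11 in RA, 1.50 ± 0.03 in SA, 1.19 ± 0.16 in RV (SD, n = 4) and 0.85 ± 0.14 in LV (SD, n = 3).

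The remaining tested laminins belong to the general basement membrane of muscle and vessels. *Lamc1*, the gamma chain shared by most laminins, was 1.76, 1.72, 1.93 and 1.81 in LA and 1.72, 1.71 and 1.92 in LV. It was 1.63, 1.51, 1.74 and 1.53 in RA, 1.60, 1.60, 1.65 and 1.48 in RV, and 1.61, 1.53, 1.63 and 1.65 in SA. Its means were 1.80 in LA and 1.78 in LV and 1.58 to 1.60 elsewhere, with LA and RA overlapping in RA replicate 3 and LA clear of SA. *Lama2*, the alpha chain of the main laminin around muscle cells, lay between 0.86 and 1.36 in 18 arrays and at -0.57 in LV replicate 3. That array was included in the fit and widened the spread of *Lama2*, for which no contrast passed. Its difference between atria and V was 0.18 ± 0.19 (SE) with the array and -0.13 ± 0.04 without it (18 arrays, limma adjusted p = 0.0136), so its direction turned on 1 array. Without LV replicate 3, *Lama2* was also lower in SA than in V by -0.24 ± 0.05 (adjusted p = 0.000448) and lower in SA than in LA by -0.18 ± 0.05 (adjusted p = 0.0199). *Lamb2*, a beta chain of mature muscle and synaptic basement membrane, ranged from 1.60 to 2.15 over the 19 arrays with no contrast past the threshold.

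Among the laminin-binding integrins, *Itgb4*, which pairs with *Itga6* in the hemidesmosomes of epithelia and in Schwann cells, was highest in SA. Its z-scores in SA were 1.39, 1.24, 1.10 and 1.20. They were 0.51, 0.35, 0.72 and 0.57 in LA and 0.28, 0.38, 0.63 and 0.31 in RA. In V they were -0.17, -0.05, 0.00 and -0.13 (RV) and -0.15, -0.10 and -0.27 (LV). Every SA array lay above every atrial array, and every atrial array above every ventricular one, whereas LA overlapped RA and LV overlapped RV. The second probe of *Itgb4* showed the same order of SA, atria and V, at means of 0.20 in SA, -0.24 in LA, -0.34 in RA, -0.51 in RV and -0.47 in LV. *Itga6*, the alpha chain that pairs with *Itgb4* or *Itgb1*, did not follow it. *Itga6* was -0.41, -0.24, -0.50 and -0.11 in SA, 0.36, -0.03, -0.08 and -0.08 in LA, and -0.21, -0.08, -0.01 and -0.09 in RA. In RV it was -0.15, 0.05, -0.02 and -0.01, and in LV -0.18, -0.01 and -0.16. It exceeded 0 in LA replicate 1 and RV replicate 2 only, and its mean was lowest in SA, where the arrays lay below all LA arrays but overlapped those of the other regions.

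*Itga7*, the laminin-binding alpha chain typical of striated muscle, was 1.29, 1.40 and 1.33 in LV and 1.10, 1.24, 1.18 and 1.03 in RV. It was 0.99, 1.01, 1.14 and 1.05 in SA, 0.99, 0.79, 0.76 and 0.89 in LA, and 0.92, 0.77, 0.76 and 0.86 in RA. The ventricles were clear of the atria, LV was clear of RV, and SA lay between, overlapping RV and touching LA. *Itga3*, which pairs with *Itgb1* as a laminin receptor of epithelia, showed the opposite split. It was 0.48, 0.38, 0.28 and 0.30 in LA, 0.10, 0.35, 0.18 and 0.23 in RA, and 0.54, 0.32, 0.20 and 0.29 in SA. It was 0.05, 0.07, -0.09 and -0.09 in RV and -0.05, 0.04 and -0.24 in LV. Every array of LA, RA and SA was above every ventricular array, and LA, RA and SA overlapped one another.

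Of the integrins that bind other matrix proteins, *Itgb6*, the partner of *Itgav* known from epithelia for releasing active TGF-beta, was highest in V. It was 1.17, 1.41, 1.43 and 1.02 in RV and 1.16, 1.54 and 1.51 in LV. It was 0.65, 0.56, 0.06 and 0.55 in LA, 0.49, 0.56, 0.02 and 0.56 in RA, and 0.60, 0.52, 0.62 and 0.81 in SA. The ventricular arrays were above all others, and LA replicate 3 and RA replicate 3 were far below the rest of their regions. All 3 probes of *Itgb6* were lower in atria than in V, by -0.90 ± 0.10, -0.75 ± 0.10 and -0.49 ± 0.06 (SE).

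*Itga11*, which pairs with *Itgb1* as a collagen receptor of fibroblasts, was 0.69, 0.59, 0.70 and 0.77 in SA. It was 0.17, -0.02, 0.08 and 0.03 in LA, -0.06, -0.04, 0.51 and 0.09 in RA, -0.14, 0.24, 0.15 and 0.04 in RV, and -0.04, 0.13 and -0.10 in LV. SA was clear of each other region, and RA replicate 3 was the nearest array to it. LV replicate 4, left out of the fit, was at 1.0, above every SA array. A second, dimmer *Itga11* probe was also higher in SA than in RA, by 0.30 ± 0.05, and the third, with region means from -0.77 to -0.71, did not differ by more than 0.05 ± 0.04 in any contrast with SA. *Itga5*, the alpha chain of the main fibronectin receptor, was 0.53, 0.61 and 0.49 in LV and 0.27, 0.17, 0.25 and 0.21 in RV. It was 0.38, 0.47, 0.19 and 0.29 in LA, 0.16, 0.31, 0.44 and 0.22 in RA, and 0.32, 0.26, 0.40 and 0.18 in SA. LV was above every other array, while the other 4 regions overlapped.

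**Figure D2:**
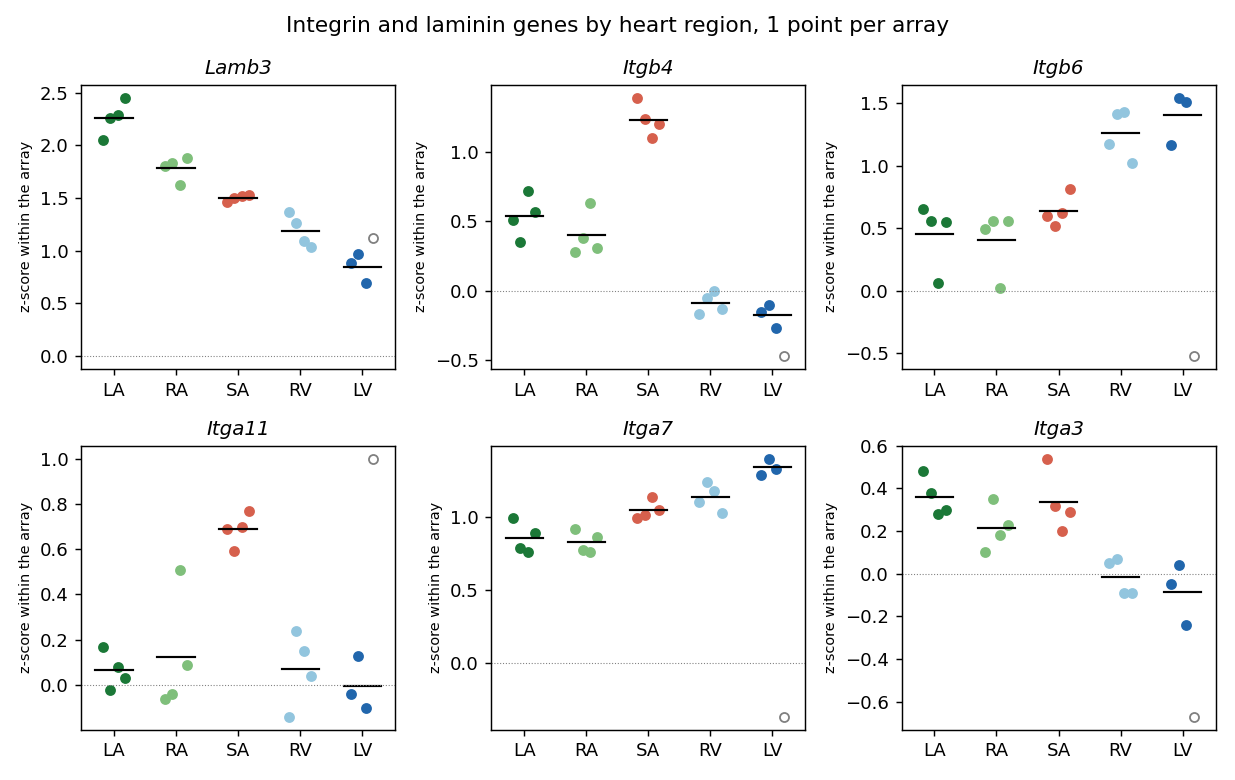
z-scores of 6 genes, 1 point per array, with a bar at the mean of each region. The open circle is LV replicate 4, which was left out of the means and tests. *Lamb3* steps down from LA to LV, *Itgb4* and *Itga11* are highest in SA, *Itgb6* and *Itga7* are highest in the ventricles, and *Itga3* is lowest there.

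*Itgb5*, a partner of *Itgav* and receptor for vitronectin, stayed between 1.68 and 2.09 in all 19 arrays, and its difference between atria and V of 0.10 ± 0.04 just missed the threshold (adjusted p = 0.0501). *Itga1*, a collagen receptor chain, had region means from 0.00 ± 0.13 in SA (SD, n = 4) to 0.23 ± 0.03 in LV (SD, n = 3). *Itgb1*, the beta chain most of these alpha chains use, was read by 2 probes that disagreed, and it is described here for that reason after its values were seen. With the probe used it was between 0.26 and 0.62 in all 19 arrays, and no contrast passed. With the other probe it was -0.27, 0.06, -0.10 and -0.07 in SA, against 0.47, 0.52, 0.74 and 0.57 in RA and 0.55, 0.50, 0.54 and 0.51 in LA. On that probe the 4 SA arrays were below all others, and SA minus RA was -0.67 ± 0.07 (adjusted p = 3.77e-06 over 23978 probes), SA minus LA was -0.62 ± 0.07 and SA minus V was -0.41 ± 0.06. The corresponding SA minus RA value of the probe used was 0.10 ± 0.06. The 2 probes have means of 0.48 and 0.34 over the 19 arrays. Which transcripts each probe reads is not given in the sources used here, so no regional statement on *Itgb1* is made.

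**Figure D3:**
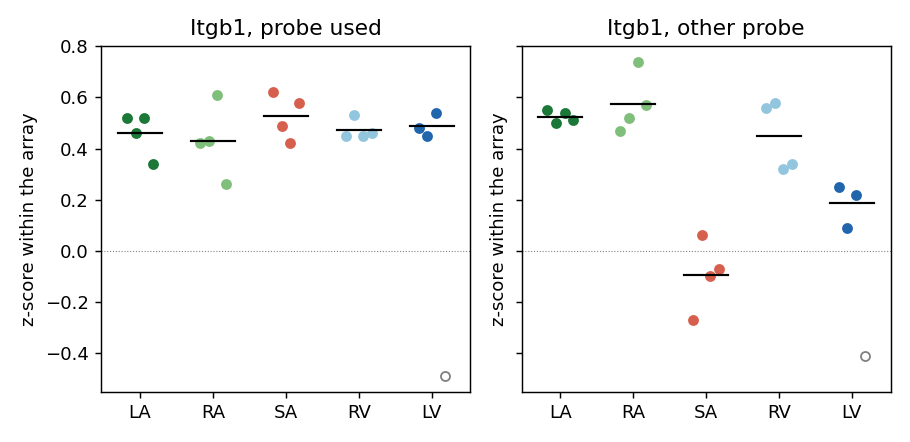
z-scores of the 2 *Itgb1* probes, 1 point per array, with bars at region means and LV replicate 4 as an open circle. The probe used is level over the regions, whereas the other probe is lower in the 4 SA arrays than in the remaining arrays of the fit.

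The first comparison asked how atrial muscle differed from ventricular muscle. Of the 14 genes, 5 passed, 3 higher and 2 lower in atria (35.7%), beside 59.5% of all genes tested, 34.6% higher and 24.8% lower. With quantile normalization 9 of the 14 genes passed, beside 60.7% of all genes, so on which side of the background the genes lay turned with the scaling. *Lamb3* was higher in atria by 1.01 ± 0.06 (SE, limma adjusted p = 2.3e-10), *Itgb4* by 0.60 ± 0.06 (adjusted p = 1.73e-07) and *Itga3* by 0.34 ± 0.06 (adjusted p = 6.25e-05). *Itgb6* was lower in atria, at -0.90 ± 0.10 (adjusted p = 6.17e-07), and *Itga7* at -0.40 ± 0.04 (adjusted p = 4.46e-07). For all 5 genes no atrial array overlapped a ventricular one. In this and the later comparisons, the share of all genes without such overlap was not counted. Separation of the arrays is therefore not read as particular to these genes. The median difference was 0.03 over the 14 genes and 0.04 over all genes. When LV replicate 4 was added, *Itgb6* (-0.66 ± 0.23, adjusted p = 0.0528) and *Itga7* (-0.18 ± 0.19, adjusted p = 0.532) no longer passed, and 17.5% of all genes did, of which 86.4% were higher in atria, against 58.2% of the genes called with 19 arrays.

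Other cell types also differed along this axis, and in tissue RNA more cells of a type cannot be told apart from more RNA per cell. All 6 mesothelial markers were higher in atria than in V, with array means of the list from 0.56 to 1.11 in LA, 0.42 to 0.80 in RA, 0.02 to 0.56 in SA, -0.29 to 0.22 in RV and -0.29 to -0.26 in LV. Its region means were 0.77 in LA, 0.57 in RA, 0.33 in SA, -0.02 in RV and -0.27 in LV, which is the order of *Lamb3*, although the arrays of neighbouring regions overlapped. Between LA and RA the 6 markers differed by -0.04 (*Wt1*) to 0.39 (*Msln*) and missed the threshold (limma adjusted p from 0.0688 for *Lrrn4* to 0.955 for *Upk3b*), with 5 of the 6 means higher in LA and *Lrrn4* without overlap. Fibroblast markers were higher in atria for 6 of 7 genes, from 1.37 to 1.56 in LA and 1.39 to 1.84 in RA. They were at 1.09 to 1.28 in RV (mean 1.16) and 0.35 to 1.07 in LV (mean 0.83). Heart muscle markers were lower in atria for 4 of 4 genes at a median of -0.28, with list means of 2.4 to 2.99 in LA and 2.72 to 2.96 in RA against 2.92 to 3.26 in V, and 2 of the 4 were lower in SA than in V. Smooth muscle markers were lower in atria for 5 of 7 genes. The part of these cells in the differences of *Lamb3*, *Itgb4*, *Itga3*, *Itgb6* and *Itga7* was not tested.

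The second comparison set SA against RA, its neighbour. Here 4 of the 14 genes passed, 3 higher and 1 lower in SA (28.6%), beside 18.2% of all genes, 9.22% higher and 9.02% lower. *Itgb4* was higher in SA by 0.83 ± 0.08 (adjusted p = 9.01e-07), *Itga11* by 0.56 ± 0.10 (adjusted p = 0.000734) and *Itga7* by 0.22 ± 0.06 (adjusted p = 0.0148), and *Lamb3* was lower, at -0.28 ± 0.09 (adjusted p = 0.0306). No SA array overlapped an RA array for these genes. The median difference of the 14 genes was 0.00, beside 0.01 over all genes. The *Itga7* and *Lamb3* calls were lost when certain single arrays were left out. In those fits the differences were 0.19 for *Itga7* and -0.29 to -0.25 for *Lamb3*. Without SA replicate 3 both missed the threshold (adjusted p = 0.0531 for each), and *Lamb3* also missed it without any one of the other SA arrays or without RA replicate 1, 2 or 4 (adjusted p from 0.0524 to 0.0927). In the fit of all 20 arrays *Itgb4* alone remained, beside 2.22% of all genes. LV replicate 4 belongs to neither region, so the differences themselves did not change. The regions share an estimate of the spread, which that array widened, and the SE of *Itga11* rose from 0.10 to 0.19.

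Against LA, 6 of the 14 genes passed, 3 higher and 3 lower in SA (42.9%), beside 20.6% of all genes, 11.1% higher and 9.57% lower. *Itgb4* was higher by 0.70 ± 0.08 (adjusted p = 8.87e-06), *Itga11* by 0.62 ± 0.10 (adjusted p = 0.000285) and *Itga7* by 0.19 ± 0.06 (adjusted p = 0.0315). *Lamb3* was lower, at -0.76 ± 0.09 (adjusted p = 4.24e-06), *Itga6* at -0.36 ± 0.09 (adjusted p = 0.0115) and *Lamc1* at -0.20 ± 0.06 (adjusted p = 0.0324). *Itga7* shared the value 0.99 between the regions, and the other 5 genes did not overlap. Without LA replicate 1, its highest array, *Itga6* differed by -0.25 ± 0.08 (adjusted p = 0.0384). *Itga7* and *Lamc1* missed the threshold without any one of several arrays, with adjusted p up to 0.102 for *Itga7* (without LA replicate 3) and 0.11 for *Lamc1* (without LA replicate 3). *Itgb4* and *Lamb3* were the genes that passed with all 20 arrays, beside 2.1% of all genes.

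Against V, 8 of the 14 genes passed, 4 higher and 4 lower in SA (57.1%), beside 55.3% of all genes, 32.3% higher and 23.1% lower. *Itgb4* was higher by 1.36 ± 0.08 (adjusted p = 6.17e-11), *Itga11* by 0.65 ± 0.09 (adjusted p = 1.17e-05), *Lamb3* by 0.49 ± 0.08 (adjusted p = 4.09e-05) and *Itga3* by 0.39 ± 0.07 (adjusted p = 0.000139). *Itgb6* was lower, at -0.69 ± 0.12 (adjusted p = 0.000141). *Itga6* at -0.24 ± 0.08 (adjusted p = 0.022), *Itga7* at -0.19 ± 0.05 (adjusted p = 0.00568) and *Itga1* at -0.19 ± 0.07 (adjusted p = 0.0299) were lower with overlapping arrays. The *Itga6* call was lost without LV replicate 2, SA replicate 1 or SA replicate 3 (adjusted p from 0.0507 to 0.0988), and that of *Itga1* without RV replicate 1 (adjusted p = 0.051) or SA replicate 2 (adjusted p = 0.145). With LV replicate 4 included 4 genes passed, beside 12.2% of all genes, and the *Itga7* difference turned to 0.02 (adjusted p = 0.963). These 3 comparisons share the SA arrays, so their results are not independent of one another.

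**Figure D4:**
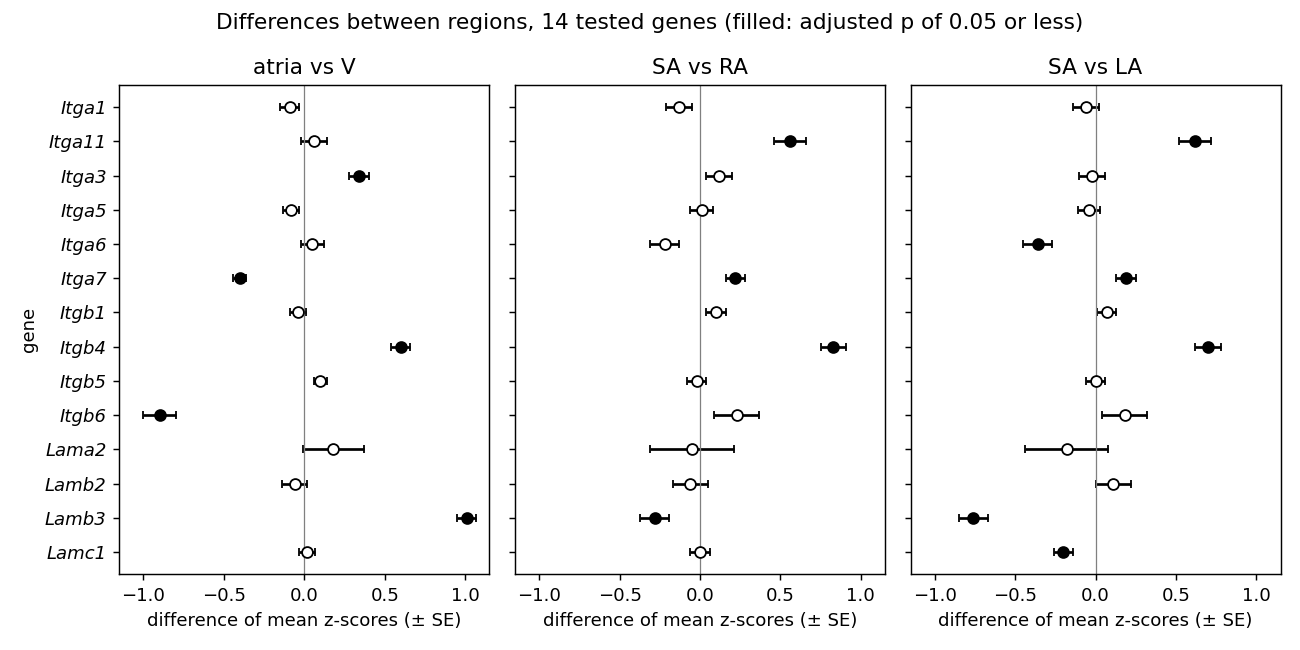
Differences of mean z-scores (± SE) for the 14 tested genes in 3 comparisons, with filled points where the adjusted p was 0.05 or less. *Lamb3* lies to the right in atria versus V and to the left in SA versus RA and SA versus LA, and *Itgb4* lies to the right in all 3.

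Markers of other tissues also differed between SA and RA. Smooth muscle markers were higher in SA than in RA for 6 of 7 genes, at list means of 0.92 to 1.31 against 0.34 to 0.45, and adipocyte markers for 4 of 4 genes, at 0.29 to 0.66 against -0.66 to -0.49. The 1 Schwann cell marker tested, *Gfra3*, was higher by 0.41 ± 0.07. Of 4 lung and airway epithelial markers tested, 1 was higher in SA, namely *Scgb1a1*, a secreted protein of airway cells, at -0.49, 3.97, 0.93 and 0.72 in the 4 SA arrays against -0.85 to -0.63 in RA. The alveolar markers *Sftpc*, *Sftpb* and *Sftpa1* were between -0.81 and -0.61 in SA and between -0.86 and -0.58 in RA. Markers were tested only if above 0 in at least 1 fitted array. *Scgb1a1*, *Gfra3*, *Cidec*, *Plin1*, *Lep*, *Tagln*, *Lmod1* and the node marker *Isl1* met this rule through SA arrays alone. The counts of tested markers higher in SA therefore follow in part from the filter. Fibroblast markers, the cell type in which *Itga11* is best known, were at 1.43 to 1.61 in SA and 1.39 to 1.84 in RA, with 0 of 7 higher and 2 lower in SA. Endothelial markers were at 1.09 to 1.17 in SA and 1.36 to 1.48 in RA, 1 of 8 higher and 4 lower. The part of smooth muscle, fat, nerve sheath, airway, fibroblast and endothelial cells in the SA differences, that of *Itga11* included, was not tested.

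Left and right chambers differed in few of these genes. Between LA and RA, *Lamb3* alone of the 14 genes passed (7.14%), beside 4.74% of all genes, 2.1% higher and 2.64% lower in LA. Its difference was 0.48 ± 0.09 (adjusted p = 0.00192), with no overlap between the atria, and that of *Lamc1* was 0.20 with an adjusted p of 0.0838. Between LV and RV, *Itga5* alone passed, at 0.32 ± 0.07 (adjusted p = 0.0232), beside 3.52% of all genes, 1.67% higher and 1.85% lower in LV. The share of higher calls among these genes was 47.4%, and 58.4% with quantile normalization. The *Itga5* call did not hold without any one of LV replicate 1, LV replicate 2, RV replicate 2 or RV replicate 4 (adjusted p from 0.0515 to 0.0772), and with the second *Itga5* probe the difference was 0.12 ± 0.07 (adjusted p = 0.343). With the replicate number as a block it missed the threshold as well (adjusted p = 0.0559 with all regions and 0.167 with the ventricles alone). *Lamb3* was lower in LV than in RV by -0.34 ± 0.09, which missed the threshold (adjusted p = 0.053), although the 3 LV arrays lay below the 4 RV arrays.

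Thus *Lamb3* was higher on the left in the atria and had a lower mean on the left in the ventricles. The difference between the left-right differences, (LA - RA) - (LV - RV), was 0.82 ± 0.13 for *Lamb3* (adjusted p = 0.000777), the only one of the 14 genes to pass, beside 6.03% of all genes, 3.19% positive and 2.84% negative. Leaving out each of the 19 arrays in turn kept this call. Over the 6 mesothelial markers the median difference was 0.24 between LA and RA, -0.21 between LV and RV and 0.44 in the interaction, with each marker short of the threshold, and their part in that of *Lamb3* was not tested. With all 20 arrays *Lamb3* did not pass between LA and RA (0.48, adjusted p = 0.11) or in the interaction (0.75, adjusted p = 0.0616), with 0.446% and 0.407% of all genes called, and 0 of the 14 genes passed between LV and RV beside 0.0263% of all genes.

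The 18 genes at or below 0 included the leukocyte integrins *Itgam*, *Itgax*, *Itgad*, *Itgae*, *Itga4*, *Itgb2*, *Itgb2l* and *Itgb7* and the platelet integrins *Itga2b* and *Itgb3*. *Itga2*, *Itga9*, *Itgav* and *Itgb8* were also among them. The laminins among them were *Lama1*, an alpha chain of early development, *Lama4*, an alpha chain of vessels, *Lamb1* and *Lamc3*. Their region means ran from -0.81 to -0.14, and for each gene the highest and lowest region means were 0.04 to 0.35 apart. The widest was *Itgb7*, a beta chain of lymphocytes, at -0.17, -0.28, -0.49 and -0.52 in SA, -0.49 to -0.61 in RA, and -0.58 to -0.77 in LA, RV and LV. SA was above LA, RV and LV in every array and met RA at the lower end. Fitted over all 16593 genes without the filter, *Itgb7* was higher in SA than in V by 0.32 ± 0.05 (adjusted p = 0.000157) and than in LA by 0.33 ± 0.06 (adjusted p = 0.00133). Between SA and RA the *Itgb7* difference in that fit was 0.19 ± 0.06, short of the threshold (limma adjusted p = 0.0552). Of all genes in that fit, 33.2% passed between SA and V, 10.6% between SA and LA and 9.71% between SA and RA. Leukocyte markers were at 0.41 to 0.89 in SA, 0.49 to 0.65 in RA and 0.28 to 0.48 in LA and V. The other leukocyte chains varied less between regions. *Itga4* had region means of -0.78 to -0.69, the lowest in SA. The myeloid chains *Itgam*, *Itgax* and *Itgad* had region means of -0.75 to -0.67, -0.79 to -0.67 and -0.48 to -0.39, their shared beta chain *Itgb2* of -0.49 to -0.37, and *Itgae*, the alpha chain of lymphocytes in epithelia, of -0.62 to -0.48 on the brightest of its 6 probes.

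*Itga2b* and *Itgb3* form the fibrinogen receptor of platelets. *Itga2b* was -0.24, -0.27, -0.43 and -0.32 in SA, -0.34 to -0.44 in LA, -0.28 to -0.50 in RA, and -0.45 to -0.66 in V. All SA and LA arrays lay above the V arrays, and 1 RA array overlapped them. Its difference between SA and V was 0.24 without the filter, whereas its second probe, with region means of -0.68 to -0.57, gave 0.03 ± 0.05. *Itgb3* showed region means of -0.74 to -0.67. *Itgav*, the alpha chain that pairs with *Itgb5*, *Itgb6* and *Itgb8*, had its highest mean in RA (-0.14 ± 0.08, SD, n = 4) and its lowest in LV (-0.34 ± 0.05, SD, n = 3), an order unlike that of *Itgb6*. *Itga9*, a receptor chain for tenascin, ran from -0.71 in SA to -0.55 in LA, and its SA minus LA value without the filter was -0.16. *Lamc3* was highest in LA (-0.47) and lowest in RV (-0.70), while *Lama1* lay between -0.78 and -0.62, *Lama4* between -0.56 and -0.45, and *Lamb1* between -0.51 and -0.32 in region means. In the fit without the filter 4 genes of the 18 passed between atria and V, beside 42.4% of all 16593 genes in that fit. They were *Itga2b* (0.17), *Itgav* (0.10), *Lamc3* (0.11) and *Itgax* (-0.09), all differences of less than 0.2.

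The partners of these genes were described from 4 lists, and their counts stand beside the shares of all genes tested that passed, 59.5% between atria and V, 18.2% between SA and RA and 55.3% between SA and V. Of 13 tested basement membrane partners, 6 were higher and 4 lower in atria than in V. *Smoc1*, a calcium-binding basement membrane protein, was higher by 1.65 ± 0.09, *Col18a1*, a collagen of vessel and epithelial basement membranes, by 0.68 ± 0.10, and *Nid2*, a linker of laminin to collagen IV, by 0.53 ± 0.06. *Col4a1*, a chain of the collagen IV network, was lower, at -0.33 ± 0.12, with overlapping arrays. Its RV arrays (2.12 to 2.41) lay inside the LA range (1.83 to 2.44) and the RA range (1.76 to 2.72). Between SA and RA 1 of the 13 passed, *Smoc1*, which was lower in SA by -0.80 ± 0.12. The median difference between atria and V was 0.15 over this list.

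Of 6 tested genes of the dystrophin complex and other laminin receptors, 4 were lower and 0 higher in atria, where the 4 heart muscle markers were lower too. The 4 genes all belong to the complex, and the others were *Dag1*, which encodes dystroglycan, at -0.08 and *Bcam*, a laminin receptor outside the complex, at 0.06, neither past the threshold. *Sgca* and *Sgcb*, which encode sarcoglycans of the complex, were lower by -0.40 ± 0.05 and -0.28 ± 0.04, *Sspn*, which encodes sarcospan, by -0.17 ± 0.04, and *Sgcd*, a further sarcoglycan gene, by -0.15 ± 0.06. The split was not uniform. For *Sspn* the RV arrays (2.99 to 3.02) lay inside the RA range (2.93 to 3.06), and only LV (3.15 to 3.3) stood above the atria. For *Sgcd* the LA range (-0.42 to 0.08) spanned both ventricles. Of the 6 genes, 1 was higher in LV than in RV and 1 was negative in the left-right interaction. *Itga7*, the muscle laminin integrin, was also lower in atria (-0.40). In SA against V 3 of the 6 were lower (*Sgca*, *Dag1* and *Sgcb*), and in SA against RA 0 of 6 passed.

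Of 12 tested adaptors and linkers, which tie integrins to actin, 3 were higher and 4 lower in atria than in V. *Zyx*, a zyxin gene of focal adhesions, was higher by 0.38 ± 0.10, while *Itgb1bp1*, a binder of the *Itgb1* tail, was lower by -0.37 ± 0.04, *Fermt2*, a kindlin that activates integrins, by -0.27 ± 0.05, and *Vcl*, which encodes vinculin, by -0.21 ± 0.06. Between SA and RA 0 of the 12 passed. In SA against V 4 were higher, with *Zyx* at 0.64 ± 0.12 and *Parva*, a parvin that joins integrin-linked kinase to actin, at 0.39 ± 0.04, and 3 were lower.

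Of 14 tested ligands other than laminins, 8 were higher and 2 lower in atria than in V, at a median of 0.35. *Ctgf*, a matrix-associated growth factor, was higher by 1.24 ± 0.14, *Vwf*, the endothelial clotting factor, by 0.99 ± 0.06, and *Vcam1*, the adhesion molecule bound by leukocyte integrins, by 0.87 ± 0.05. *Vtn*, which encodes vitronectin, was lower by -0.78 ± 0.05. In SA against RA 2 were higher and 4 lower, with *Vtn* at 0.62 ± 0.07 and *Thbs2*, a thrombospondin, at 0.52 ± 0.08, and *Vcam1* at -0.72 ± 0.07. Like *Lamb3*, *Vtn* differed between LA and RA (0.88 ± 0.07, adjusted p = 9.99e-08) and in the left-right interaction (0.82 ± 0.10, adjusted p = 6.61e-05).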

How the data were processed

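RNA of the 5 heart regions had been hybridized to Illumina MouseRef-8 v2 bead arrays, and intensities were extracted, per the labels, with BeadStudio and GenomeStudio 2011.1. The deposited values were read as scores, namely z-scores per array with mean 0 and SD 1 over 25697 probes. The authors describe log2 signals with medians aligned, and whether these went into the scores is not given in the sources used here. Of the probes, 23978 had 1 gene name. The other 1719, without a single gene name (none or several), were left out. Genes with several probes (4777) were read by the probe of highest mean in the 19 arrays fitted.

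A mean per region was fitted with limma 3.58.1 in R 4.3.3 to 19 arrays, without LV replicate 4, and contrasts were tested two-sided with Benjamini-Hochberg adjustment over 7618 genes that exceeded 0 in at least 1 array. The threshold was 0.05. The authors' own analysis used fewer LV arrays, without naming them. For arrays, their number limits the precision, and detection p-values were not used. Values in every array are given for genes past the threshold in the F test and in a contrast, and up to 4 genes per list and contrast are named. Members and lists were chosen with earlier results of these data known. Alternatives changed the arrays, filter, scaling, probe, moderation and replicate block. In simulated data for SA versus RA with changes added to genes among 7618, 47% of changes of 0.25, 89% of 0.5 and 95% of 1 were recovered, with 10 false calls. The simulation drew independent normal noise and changed few genes, in SA alone. In the measured arrays 18.2% of all genes were called, so these rates may not carry over to them.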

Additional observations from a re-analysis of the deposited data

Results flagged for a closer look

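In 7 of 128 groups of 4 arrays, 1 array lay far from the other 3 by Dixon's criterion, which chance does in about 1 of 20 groups. *Itgb6* was at 0.06 in LA replicate 3 and at 0.02 in RA replicate 3, below the other LA (0.55 to 0.65) and RA (0.49 to 0.56) arrays. *Itga6* was at 0.36 in LA replicate 1, against -0.08 to -0.03 in the rest of LA. *Itgb5* was at 2.09 and *Lamc3* at -0.49 in RA replicate 3, against 1.85 to 1.89 and -0.67 to -0.64. *Itgb3* was at -0.58 in LA replicate 1, against -0.72 to -0.71, and *Itgb1* at 0.53 in RV replicate 2, against 0.45 to 0.46. LV was not among these groups, since LV replicate 4 was left out. With it, LV replicate 4 was the far array for 13 of the 32 genes.

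The left-right difference of *Lamb3* was not the same in atria and ventricles. The interaction was 0.82 ± 0.13 (limma adjusted p = 0.000777).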

How the results depend on the processing

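The choice that moved the results most was LV replicate 4. With all 20 arrays the number of the 14 genes called fell from 9 to 3 in the F test, from 5 to 3 between atria and V, from 4 to 1 between SA and RA, from 6 to 2 between SA and LA, from 8 to 4 between SA and V, and from 1 to 0 between LA and RA, between LV and RV and in the interaction. Of 26 called differences 10 held, 15 lost the threshold and 1 turned, namely *Itga7* in SA versus V, at 0.02. In SA versus RA, SA versus LA and LA versus RA, LV replicate 4 changed the shared estimate of the spread and not the differences. Without the filter, 10 of the 32 genes passed between atria and V, beside 42.4% of all genes. Quantile normalization gave 9 of 14 there, beside 60.7% of all genes, adding *Itga1*, *Itga5*, *Itgb1* and *Itgb5*, and 2 between LV and RV, adding *Lamb3*. It moved the share of higher calls among all genes between LV and RV from 47.4% to 58.4%, between atria and V from 58.2% to 49.6% (43.4% without the filter, 86.4% with 20 arrays) and in the interaction from 52.9% to 46.8%, and medians of all genes by less than 0.1. *Itgb5* in atria versus V, just over the threshold, passed it with 18 arrays, no filter, a mean above 0, quantile normalization, medians aligned, the mean of all probes and the trend. The moderation with trend also gave 2 between LV and RV, while the mean of all probes and the second brightest probe, the latter chosen after seeing the data, gave 0.

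Leaving out 1 array at a time gave 8 to 10 genes in the F test, 5 to 7 between atria and V, 2 to 5 between SA and RA, 4 to 7 between SA and LA, 7 to 9 between SA and V, 1 to 2 between LA and RA, 0 to 2 between LV and RV and 1 in the interaction. SA replicate 3 brought SA versus RA to 2, and RA replicate 3 brought LA versus RA to 2 with *Lamc1*. For LV versus RV, the count was 0 without LV replicate 1 or 2 or RV replicate 2 or 4, and 2 without LA replicate 1 or 4 or RA replicate 3.

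Replicate numbers were not shown to pair the samples: over 36 pairs with the same number the deviations from region means correlated at -0.38 to 0.53, with 10 over 0.1. The titles of LV and RV share non-consecutive numbers, and their pairs correlated at 0.21, 0.18 and 0.02. With the replicate number as a block, 2 genes passed between LA and RA (*Lamc1* as well) and 0 between LV and RV. In block fits of 2 regions alone, 1 passed between LA and RA, without *Lamc1*, and 0 between LV and RV. *Itga7* in SA versus LA was lost as well (adjusted p = 0.0548). The block kept 24 of the 26 called differences. Medians aligned, no filter, quantile normalization, the highest probe per array, the trend and 18 arrays each kept all 26.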
